A study of Mus musculus with 9 samples.

Results

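Type I interferon response genes were examined in bulk RNA sequencing of the mouse substantia nigra pars compacta, the midbrain nucleus whose dopamine neurons are lost in Parkinson's disease. The set was the 9 genes Stat2, Irf9, Irf7, Ifit1, Ifit2, Ifit3, Isg15, Ifitm3 and Bst2, taken by gene name from a table of 27339 genes. All 9 were present and all 9 passed the filter on low values. The 9 libraries formed 3 groups of 3. MPTPKD mice received MPTP together with a medium-chain triglyceride ketogenic diet, MPTP mice received MPTP, and Ctrl mice were the controls. MPTP is a toxin used to model the disease: its metabolite MPP+ is taken up by dopamine neurons and inhibits complex I of their mitochondria. Both the MPTPKD and the MPTP mice received it. The comparisons ask what the toxin changed and what the diet changed in mice that also received it. A group given the diet alone was not analysed here. The labels used here give no strain, age, sex, dose or time, nor whether libraries are separate animals, so the p-values cover the spread among the 9 libraries and not necessarily that among animals.

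Type I interferons are secreted proteins that cells release after sensing viral or misplaced nucleic acid. They bind the receptor chains IFNAR1 and IFNAR2, whose kinases JAK1 and TYK2 phosphorylate STAT proteins, and STAT2 joins IRF9 in the complex ISGF3. ISGF3 binds the interferon-stimulated response element (ISRE) in front of target genes. In brain, microglia, endothelium and cells of the meninges are known to respond, and low tonic signalling keeps the response genes measurable at rest.

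The response element could be read directly in the RefSeq promoter windows (GRCm38.p6, 250 bases before to 50 after a start site), in which all 9 genes were found. The ISRE core was searched on both strands as GAAA, any 2 bases and GAAA again, which on the other strand reads TTTC, any 2 bases and TTTC, with copies allowed to overlap. It stood in the windows of 6 of the 9 genes, against 1079 of 27025 genes with a window (3.99%). Isg15 held 3 overlapping copies, Bst2 held 2 overlapping copies, Ifit1, Ifit3 and Ifitm3 held 2 each, and Stat2 held 1. The letters were not in the windows used for Irf7, Irf9 and Ifit2. Stretches are given for Isg15, Bst2, Ifit1 and Ifit3, which varied most within groups, and for Stat2, which varied little. They read 5′ to 3′ in the direction of transcription, with the matched letters in capitals.
Isg15, chr4:156200835-156200936, minus strand: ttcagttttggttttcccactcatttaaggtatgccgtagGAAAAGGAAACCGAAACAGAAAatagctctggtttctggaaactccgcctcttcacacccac
Bst2, chr8:71537547-71537642, minus strand: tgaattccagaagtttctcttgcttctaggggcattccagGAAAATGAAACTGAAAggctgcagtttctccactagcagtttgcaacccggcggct
Ifit1, chr19:34640745-34640853, plus strand: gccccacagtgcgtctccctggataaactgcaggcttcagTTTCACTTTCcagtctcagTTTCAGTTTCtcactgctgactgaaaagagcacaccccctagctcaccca
Ifit3, chr19:34583333-34583456, plus strand: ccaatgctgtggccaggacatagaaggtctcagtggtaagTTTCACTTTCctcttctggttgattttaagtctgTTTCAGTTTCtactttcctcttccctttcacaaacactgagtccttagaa
Stat2, chr10:128270248-128270325, plus strand: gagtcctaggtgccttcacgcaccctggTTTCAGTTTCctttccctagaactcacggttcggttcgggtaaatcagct
The 10-base match began 78, 72 and 66 bases before the start site in Isg15, 130 and 124 bases before it in Bst2, 104 and 85 in Ifit1, 156 and 122 in Ifit3, and 222 in Stat2. In Ifitm3 both matches began after the start site, at bases 2 and 19. The stretch of Ifit3 was identical, letter for letter, in front of its neighbour Ifit3b at chr19:34607729-34607852. A match is a description of the letters and not evidence that a factor was bound.

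Total counts per library lay between 33.2 and 40.0 M (the SI prefix mega), and mitochondrial transcripts took 6.14% to 7.06% of them. The tissue label was checked with 10 dopamine neuron markers, including Th and Slc6a3. All 10 passed the filter, and their summed level was 574 to 705 CPM (counts relative to M counts, with TMM-scaled library sizes) in MPTPKD, 601 to 691 CPM in MPTP, and 723 to 860 CPM in the Ctrl libraries. In bulk tissue, fewer cells of a type and less RNA per cell cannot be told apart. Libraries of a group also differed in markers of neighbouring tissue. The sum of 10 choroid plexus and ependyma markers reached 1280 CPM in Ctrl 3. For 12 meningeal fibroblast markers the sum was 483 to 1327 CPM in MPTPKD, 404 to 741 in MPTP and 531 to 1333 in Ctrl. A large part of that sum was Ptgds alone, which averaged 400 ± 140 CPM in MPTP and 742 ± 367 CPM in Ctrl (SD).

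The levels of the 9 genes were modest. Per length, in FPKM (fragments scaled by transcript length and by library size, the authors' values), Ifitm3 stood highest with a mean of 10.1 ± 1.90 FPKM over the 9 libraries (SD). Ifit3 followed at 5.44 ± 1.02 FPKM, Stat2 at 4.98 ± 0.420, Ifit2 at 4.46 ± 0.263 and Irf9 at 4.32 ± 0.439 FPKM, and these neighbours lay within each other's spread. Bst2 came next at 2.92 ± 0.666 FPKM. Isg15 at 1.58 ± 0.392, Irf7 at 1.30 ± 0.230 and Ifit1 at 1.17 ± 0.366 FPKM were lowest and did not differ beyond their spread. The median over all 14949 tested genes was a mean level of 7.78 FPKM, so Ifitm3 was the one gene of the set above it. The lowest raw counts in a library were 28 for Isg15, 59 for Bst2, 61 for Ifit1 and 69 for Irf7, whereas Stat2 had at least 711.

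None of the 9 genes differed between groups past the threshold in any comparison. Tests used edgeR's quasi-likelihood test over all 14949 genes with Benjamini-Hochberg adjustment and a threshold of 0.05. For MPTP against Ctrl, 0 of 9 passed and 0 of 9 had an unadjusted p under 0.05, beside 0.0134% and 5.36% of all genes tested. For MPTPKD against MPTP, 0 of 9 passed by either measure, beside 0% and 7.78% of all genes. For MPTPKD against Ctrl, 0 of 9 passed by either measure, beside 0% and 6.73%. Where no gene at all was called, 1163 genes (MPTPKD against MPTP) and 1006 genes (MPTPKD against Ctrl) had an unadjusted p under 0.05. DESeq2 called 14, 19 and 14 genes in the 3 comparisons in that order, and limma called 0 in each. With a replicate block, edgeR called 0 genes in MPTPKD against MPTP over all 9 libraries and 11 in a model of those groups alone, none of them among the 9. Neither DESeq2 nor limma gave any of the 9 genes an unadjusted p under 0.05.

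The ranges of the groups overlapped for all 9 genes in all 3 comparisons. Over all genes tested, 5.14% were higher and 5.41% lower in MPTP than in Ctrl without overlap, 6.64% and 7.1% in MPTPKD than in MPTP, and 6.28% and 6.4% in MPTPKD than in Ctrl. The fitted differences lay on both sides of 0. They were above 0 for 4 of 9 genes in MPTP against Ctrl, and the median log2 difference was -0.0074 (all genes tested -0.00092). In MPTPKD against MPTP 5 of 9 were above 0, with a median of 0.030 (all genes 0.00056), and in MPTPKD against Ctrl 4 of 9, with a median of -0.043 (all genes -0.0015). These counts and medians moved as single libraries were removed. The median ran from -0.12 (MPTP 1 removed) to 0.040 (Ctrl 1 removed) in MPTP against Ctrl, and removing Ctrl 3 together with MPTP 1 left 1 gene above 0 and 8 below, with a median of -0.12. In MPTPKD against MPTP it ran from -0.040 (MPTPKD 3 removed) to 0.14 (MPTPKD 1 removed, 8 of 9 above 0). In MPTPKD against Ctrl it ran from -0.052 (MPTPKD 3 removed) to 0.12 (MPTPKD 1 removed, 7 of 9 above 0). These comparisons share libraries, so they are not independent of each other.

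**Figure D1:**
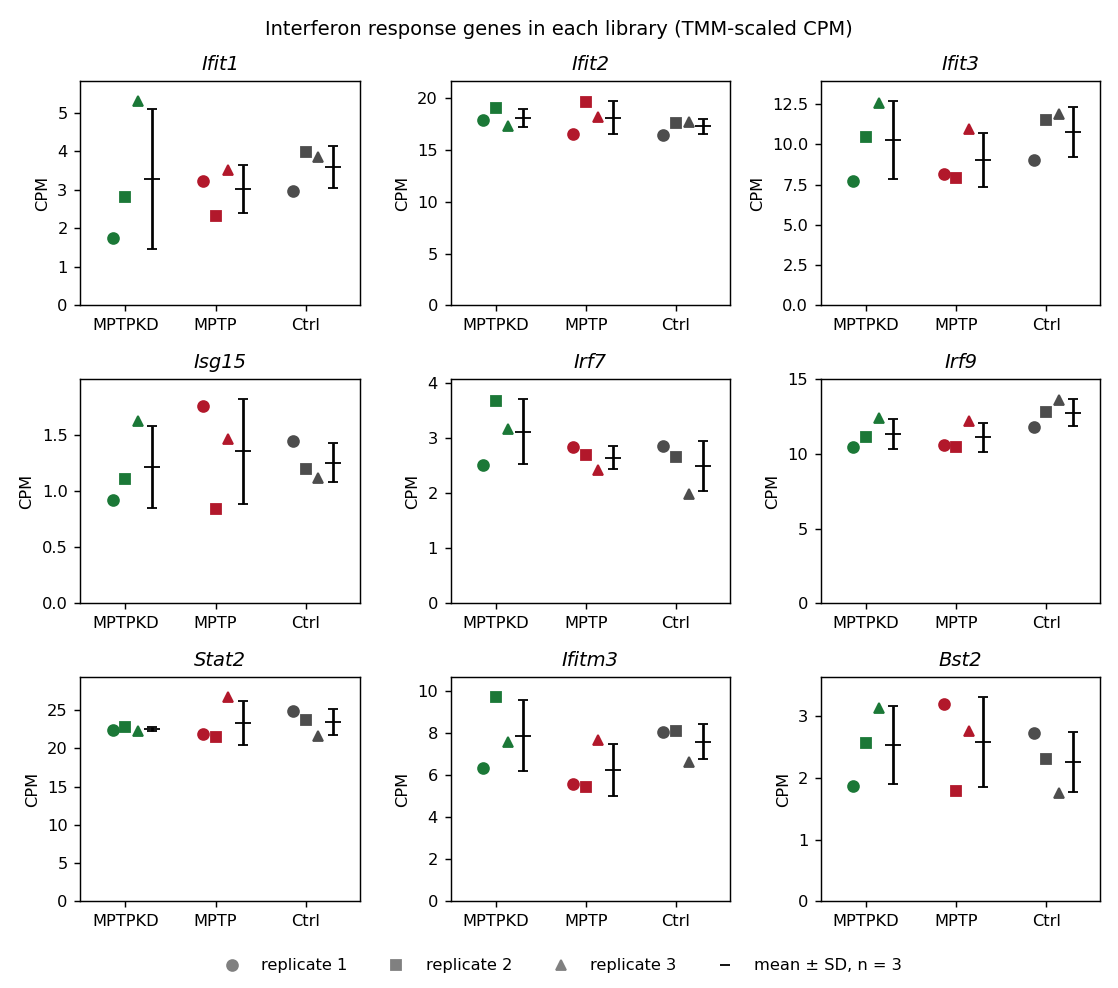
Level of each of the 9 genes in each library, in TMM-scaled CPM on a linear axis from 0, for MPTPKD, MPTP and Ctrl. Symbols are single libraries by replicate number and bars are the mean ± SD of 3 libraries. The ranges of the 3 groups overlap for every gene, and Ifit1 spans 1.76 to 5.30 CPM within MPTPKD.

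Of the transcription factors that carry the signal, Stat2 and Irf9 varied little between libraries and Irf7 more. Stat2, a signal transducer and subunit of ISGF3 (chromosome 10, 128270559 to 128292849, GRCm38), was at 22.4, 22.9 and 22.3 CPM in MPTPKD, 21.9, 21.5 and 26.7 CPM in MPTP, and 24.9, 23.8 and 21.7 CPM in Ctrl (replicates 1, 2 and 3 in each list). Only MPTP 3 stood above the range of Ctrl. Its log2 fold change was -0.0074 in MPTP against Ctrl (SE 0.0963, edgeR adjusted p = 0.998) and -0.052 in MPTPKD against MPTP (SE 0.0966, adjusted p = 0.927).

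Irf9, the DNA-binding subunit of ISGF3 (chromosome 14, 55603571 to 55610030), was at 10.5, 11.1 and 12.4 CPM in MPTPKD, 10.6, 10.5 and 12.2 CPM in MPTP, and 11.8, 12.8 and 13.6 CPM in Ctrl. In both MPTP-treated groups replicates 1 and 2 lay below all Ctrl libraries, and replicate 3 lay inside their range. Its mean was 11.1 ± 0.974 CPM in MPTP, against 12.8 ± 0.905 CPM in Ctrl (SD, n = 3 each; log2 fold change -0.20, SE 0.118, edgeR unadjusted p = 0.117, adjusted p = 0.922). In MPTPKD it averaged 11.35 ± 0.983 CPM (log2 fold change against Ctrl -0.17, adjusted p = 0.838). These were the smallest unadjusted p-values of the set in the comparisons with Ctrl.

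Irf7, the factor that amplifies the response by driving further interferon genes (chromosome 7, 141262706 to 141266481, minus strand), was at 2.51, 3.68 and 3.16 CPM in MPTPKD, 2.83, 2.69 and 2.42 CPM in MPTP, and 2.85, 2.65 and 1.98 CPM in Ctrl. MPTPKD 2 and 3 were the highest of the 9 libraries, and MPTPKD 1 lay within the range of both other groups. The log2 fold change was 0.32 in MPTPKD against Ctrl (SE 0.242, adjusted p = 0.849), with means of 3.12 ± 0.587 and 2.49 ± 0.456 CPM, and 0.24 in MPTPKD against MPTP (adjusted p = 0.842). Its counts and FPKM values implied transcript lengths that differed by a factor of up to 1.27 between libraries, so the order of libraries differs between the CPM and FPKM scales.

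The IFIT proteins bind viral RNA and block its translation. The 3 genes lie in one cluster on chromosome 19, and they differed in how steady they were. Ifit2 (34550694 to 34576419) was at 17.8, 19.0 and 17.3 CPM in MPTPKD, 16.5, 19.6 and 18.1 CPM in MPTP, and 16.4, 17.6 and 17.7 CPM in Ctrl. It was the steadiest of the 9 genes, with the highest library 1.19 times the lowest. For MPTP against Ctrl its fold was 1.05, with a 95% interval of 0.911 to 1.21, and for MPTPKD against MPTP 0.998, with an interval of 0.866 to 1.15.

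Ifit1 (34640871 to 34650009) was at 1.76, 2.81 and 5.30 CPM in MPTPKD, 3.23, 2.33 and 3.52 CPM in MPTP, and 2.97, 3.98 and 3.84 CPM in Ctrl. The lowest and the highest of all 9 libraries were both MPTPKD libraries, a ratio of 3.01 within that group, against 1.51 within MPTP and 1.34 within Ctrl. The difference in spread between groups was not tested. The log2 fold change of Ifit1 was -0.25 in MPTP against Ctrl (SE 0.340, adjusted p = 0.971) and 0.12 in MPTPKD against MPTP (SE 0.342, adjusted p = 0.953). The second became 0.42 without MPTPKD 1 and -0.41 without MPTPKD 3.

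Ifit3 (34583531 to 34588731) was at 7.76, 10.5 and 12.6 CPM in MPTPKD, 8.18, 7.91 and 10.9 CPM in MPTP, and 9.02, 11.5 and 11.9 CPM in Ctrl. MPTPKD 1, MPTP 1 and MPTP 2 were the lowest libraries. Its mean was 9.01 ± 1.67 CPM in MPTP, against 10.8 ± 1.55 CPM in the Ctrl libraries (log2 fold change -0.26, SE 0.188, adjusted p = 0.930). Reads of Ifit3 may be exchanged with its near copy Ifit3b, since 521 of the 1646 stretches of 100 bases in the Ifit3 transcript (31.7%) also occur in Ifit3b. Ifit3b itself averaged 5.57 ± 1.28 CPM in MPTPKD, 6.05 ± 2.17 CPM in MPTP, and 7.38 ± 1.08 CPM in the Ctrl libraries. The sum of both, which such an exchange leaves unchanged, was 15.8 ± 2.90 CPM in MPTPKD, 15.1 ± 3.73 CPM in MPTP, and 18.2 ± 2.34 CPM in the Ctrl libraries, with overlapping ranges. For Ifit1 and Ifit1bl1 no such stretch was shared (0 of 2557), and Ifit1bl1 averaged 3.02 ± 0.122, 3.06 ± 0.563 and 3.30 ± 0.129 CPM in MPTPKD, MPTP and Ctrl.

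Isg15 encodes a ubiquitin-like protein that is attached to other proteins during the response (chromosome 4, 156199424 to 156200818, minus strand). It was the least expressed of the set by counts, at 0.923, 1.11 and 1.62 CPM in MPTPKD, 1.76, 0.846 and 1.46 CPM in MPTP, and 1.45, 1.20 and 1.12 CPM in Ctrl. MPTP held both the highest and the lowest library. The log2 fold change was 0.11 in MPTP against Ctrl (SE 0.348, adjusted p = 0.986). Its fold interval, 0.642 to 1.82, reached highest of the 9 in that comparison.

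Ifitm3 and Bst2 encode membrane proteins that restrict viruses at entry and at budding. Ifitm3 (chromosome 7, 141009586 to 141010770, minus strand) was at 6.37, 9.72 and 7.61 CPM in MPTPKD, 5.61, 5.47 and 7.68 CPM in MPTP, and 8.07, 8.11 and 6.65 CPM in Ctrl. MPTP 1 and 2 were the lowest libraries and MPTPKD 2 the highest. Its mean was 7.90 ± 1.69 CPM in MPTPKD and 6.25 ± 1.24 CPM in MPTP (SD, n = 3 each; log2 fold change 0.34, SE 0.192, edgeR unadjusted p = 0.102, adjusted p = 0.696), the smallest p of the set in that comparison. In MPTP against Ctrl the log2 fold change was -0.28 (SE 0.192, adjusted p = 0.922).

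Bst2, which encodes tetherin (chromosome 8, 71534255 to 71537456, minus strand), was at 1.87, 2.57 and 3.13 CPM in MPTPKD, 3.20, 1.78 and 2.76 CPM in MPTP, and 2.72, 2.31 and 1.75 CPM in Ctrl. The highest library was 1.67 times the lowest within MPTPKD, 1.80 times within MPTP and 1.56 times within Ctrl. The log2 fold change was 0.19 in MPTP against Ctrl (SE 0.297, adjusted p = 0.972) and -0.030 in MPTPKD against MPTP (SE 0.297, adjusted p = 0.989).

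**Figure D2:**
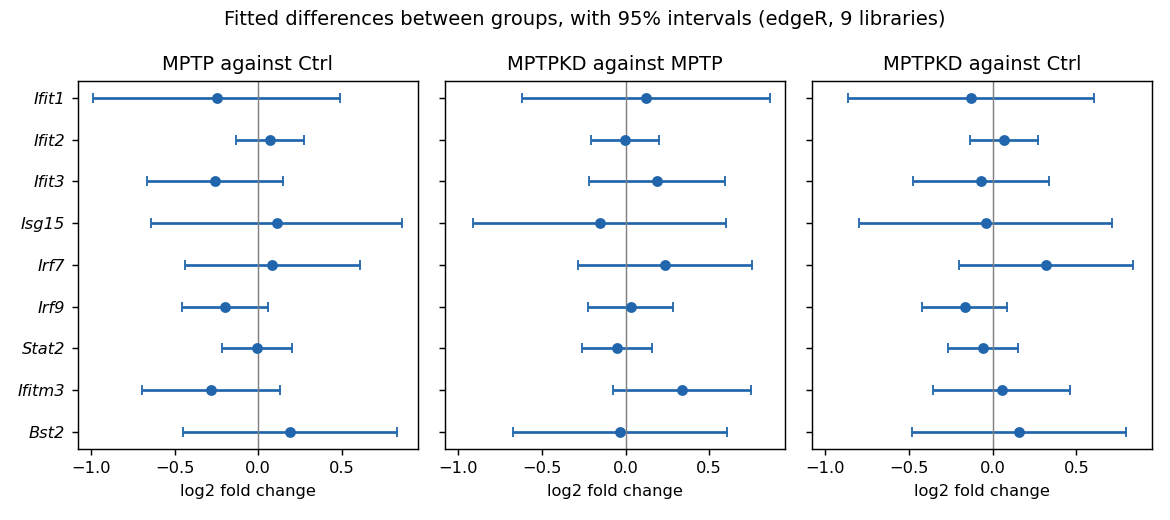
Fitted log2 fold change of each of the 9 genes (x axis) in the 3 comparisons, first-named group over second, with 95% intervals from edgeR over 9 libraries. Every interval crosses 0, and the intervals of Ifit2, Stat2 and Irf9 are the narrowest.

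All 27 intervals of the 9 genes crossed a fold of 1. For MPTP against Ctrl the folds ran from 0.821 (Ifitm3) to 1.14 (Bst2) and the intervals reached from 0.505 (Ifit1) to 1.82 (Isg15). For MPTPKD against MPTP the folds ran from 0.899 (Isg15) to 1.26 (Ifitm3) and the intervals from 0.533 (Isg15) to 1.82 (Ifit1). For MPTPKD against Ctrl the folds ran from 0.890 (Irf9) to 1.25 (Irf7) and the intervals from 0.550 (Ifit1) to 1.79 (Irf7). No interval reached a fold of 2, and differences smaller than its own interval could not be resolved for a gene.

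Within groups the genes varied to different degrees. The within-group SD of log2 CPM was 0.50 for Ifit1, larger than for 94.1% of tested genes, 0.39 for Isg15 and 0.37 for Bst2. It was 0.28 for Ifit3, 0.25 for Ifitm3 and 0.23 for Irf7. Stat2, Irf9 and Ifit2 had SDs of 0.117, 0.117 and 0.0885, below the median of 0.123 over all genes tested. Low genes vary more in count data, and edgeR's trend gives the biological coefficient of variation of a gene at each level. Against it, Ifit1 (0.301, trend 0.263) and Ifit3 (0.174, trend 0.162) lay slightly above. The other 7 lay below, among them Isg15 (0.278, trend 0.308), Bst2 (0.261, trend 0.284), Irf7 (0.218, trend 0.276) and Ifitm3 (0.182, trend 0.196). By this measure the spread of most of the 9 was no larger than the trend at their level. edgeR draws each gene's value towards that trend, so closeness to it is partly built in.

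In MPTPKD and in MPTP 1 library was the lowest for most of the genes. MPTPKD 1 was the lowest of its group for 7 of 9 genes, beside 32.5% of all genes tested, and MPTP 2 for 7 of 9, beside 29.8%. In Ctrl the lowest library was Ctrl 3 for 5 genes and Ctrl 1 for 4. The mean log2 CPM of the 9 genes, each centred on its own mean, was -0.27, 0.083 and 0.24 in MPTPKD 1, 2 and 3, 0.0043, -0.25 and 0.11 in MPTP 1, 2 and 3, and 0.048, 0.083 and -0.052 in Ctrl 1, 2 and 3. Group means were 0.018 ± 0.258 in MPTPKD, -0.045 ± 0.181 in MPTP and 0.026 ± 0.0702 in Ctrl (SD, n = 3 each), so the libraries of both MPTP-treated groups spread on both sides of Ctrl.

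**Figure D3:**
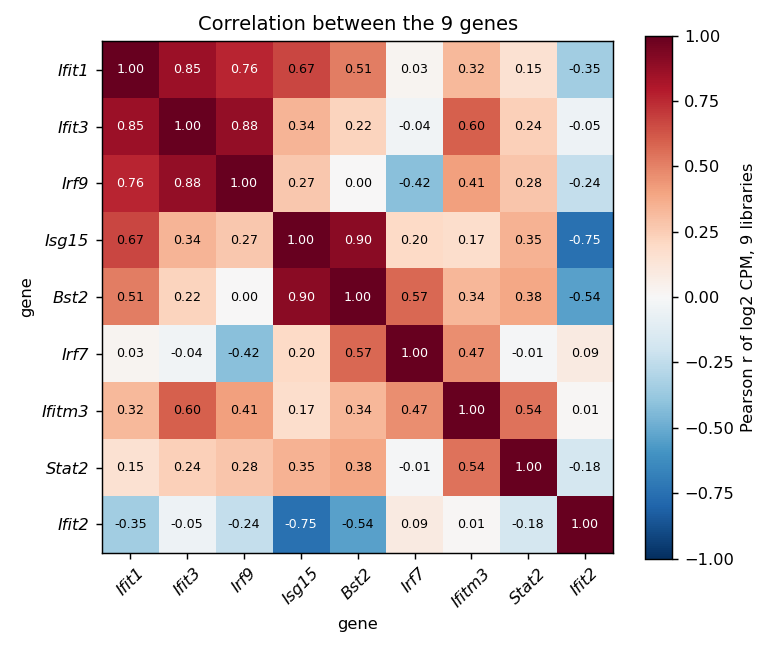
Pearson r of log2 CPM between each pair of the 9 genes over the 9 libraries, with genes on both axes and colour from -1 to 1. Ifit1, Ifit3 and Irf9 form one block, Isg15 and Bst2 another, and Ifit2 is near or below 0 with most of the others.

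Over the 9 libraries the genes did not vary as 1 block. Of 36 pairs, 27 had a positive r, 6 had an unadjusted p under 0.05 and 2 passed after adjustment over the 36 pairs (exact two-sided permutation tests). The share of such pairs among all genes tested was not computed, so whether the counts are particular to these genes cannot be said. The permutations ignore the 3 groups and the tissue content that genes of a library share. Isg15 and Bst2 correlated at a Pearson r of 0.904 (exact permutation p = 0.00103, adjusted p = 0.0266) and a Spearman rho of 0.867 (exact permutation p = 0.00451, adjusted p = 0.0406). Without MPTP 1 and MPTP 2, the libraries farthest from the median of Isg15, r was 0.841, and for the deviations from group means it was 0.941.

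Ifit1 and Ifit3 correlated at an r of 0.855 (exact permutation p = 0.00148, adjusted p = 0.0266) and a rho of 0.917 (exact permutation p = 0.00131, adjusted p = 0.0236). Without MPTPKD 1 and MPTPKD 3 r was 0.773, and within groups it was 0.881. Irf9 went with them. Its r with Ifit3 was 0.881 (exact permutation p = 0.0043, adjusted p = 0.0516) and its rho 0.917 (exact permutation p = 0.00131, adjusted p = 0.0236), with an r of 0.788 without MPTP 2 and MPTPKD 1 and 0.954 within groups. With Ifit1 its r was 0.762 (exact permutation p = 0.0146, adjusted p = 0.132) and its rho 0.867 (exact permutation p = 0.00451, adjusted p = 0.0406).

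Ifit2 did not follow its neighbours. Its r was -0.346 with Ifit1 and -0.0514 with Ifit3, and its strongest relation was a negative one with Isg15 (r = -0.746, exact permutation p = 0.0206, adjusted p = 0.148, and rho = -0.717, exact permutation p = 0.0369, adjusted p = 0.221). Without Ctrl 1 and MPTP 2 this r was -0.605, and the r of Ifit2 with Ifit3 was 0.237. Ifit2 had little variation to correlate: its within-group SD of log2 CPM was 0.0885, beside a counting error of 0.057. All genes of a library share its depth and its tissue content in these correlations, and the genes were chosen with earlier results known.

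Markers of other cell types moved between the same libraries. The mean centred log2 CPM of 12 meningeal fibroblast genes, all tested and none at 0, was -0.74, 0.57 and 0.90 in MPTPKD 1, 2 and 3, -0.9997, -0.76 and 0.26 in MPTP 1, 2 and 3, and 0.69, 0.29 and -0.20 in Ctrl 1, 2 and 3. It was therefore low in MPTPKD 1 and MPTP 2, the libraries with the lowest levels of the 9 genes, and also in MPTP 1, where the mean of the 9 genes was 0.0043. The 12 border macrophage and blood leukocyte genes summed to 13.9 to 22.6 CPM in MPTPKD and 12.4 to 15.7 CPM in MPTP. In the Ctrl libraries they summed to 13.5 to 16.2 CPM. Of the 12 genes 5 were tested, and the mean of this list covers only those 5. Mrc1 and F13a1 had log2 fold changes of -0.51 and -0.34 in MPTP against Ctrl. Ptprc, Cd163 and Ly6c2 had 0.053, 0.16 and 2.2. Ly6c2 was hardly detected in Ctrl, at 0.160 ± 0.193 CPM. The T cell marker Cd3e was under 3 counts in every library. Microglia markers, all 10 tested, varied less, with sums of 336 to 341 CPM in MPTPKD, 318 to 334 CPM in MPTP, and 289 to 324 CPM in the Ctrl libraries. Mural cell markers summed to 325 to 402 CPM in MPTPKD, 342 to 363 CPM in MPTP, and 359 to 378 CPM in the Ctrl libraries, and endothelial markers to 424 to 430, 414 to 442 and 402 to 430 CPM in the same order. Over the 9 libraries the mean of the 9 genes had a Pearson r of 0.796 with the mean of the meningeal list and 0.727 with the mural list. The r was 0.686 with the 5 tested macrophage and leukocyte genes, 0.138 with the endothelial list and 0.0764 with the microglia list. The deviations from group means gave 0.832, 0.769, 0.825, 0.251 and 0.157 in the same order. Other lists gave 0.113 (astrocyte), 0.0453 (neuron), -0.0938 (oligodendrocyte), -0.272 (dopamine neuron) and -0.31 (choroid plexus and ependyma). Within groups these were 0.214, 0.0045, -0.081, -0.617 and -0.424. These values are descriptions over 9 libraries in which all genes share depth and tissue content, with no p, and the part of the marker cells in the spread of the 9 genes was not tested.

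**Figure D4:**
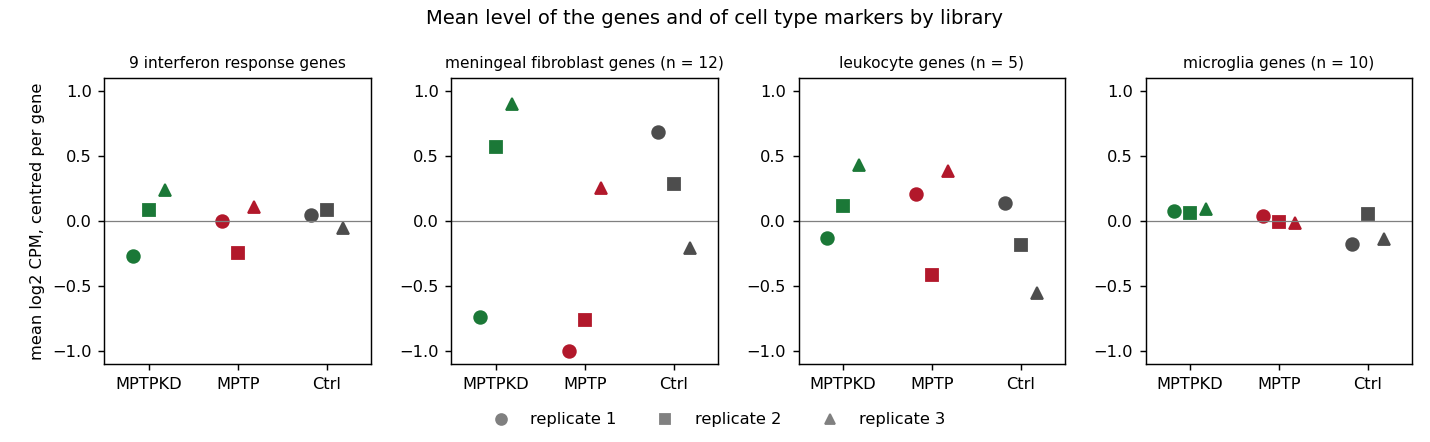
Mean log2 CPM in each library of the 9 genes and of 3 marker lists, each gene centred on its own mean over 9 libraries, for MPTPKD, MPTP and Ctrl with the replicate number as symbol. MPTPKD 1 and MPTP 2 are the lowest for the 9 genes, the meningeal list spans -0.9997 to 0.90, and the microglia list varies least of the 4 panels.

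Genes outside the set whose levels followed the mean of the 9 most closely over the 9 libraries were Lyz2, Itpkc, Pear1, Fhl2, Arhgap15, Hnrnph2, Smim11, Anxa9 and Kcnq5, with a Pearson r from 0.971 for Lyz2 to 0.897 for Kcnq5. Lyz2, the lysozyme of myeloid cells, was at 6.34, 10.7 and 14.4 CPM in MPTPKD, 8.01, 5.56 and 11.8 CPM in MPTP, and 9.89, 10.8 and 8.69 CPM in Ctrl. Its lowest libraries were MPTPKD 1 and MPTP 2, which follows from its choice by r with the mean of the 9. These r values describe the closest of all tested genes and carry no test.

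Around the 9 genes, the interferons themselves were hardly detected. Of 12 ligand genes 10 were at 0 counts in all 9 libraries, Ifnb1 among them, where a count of 0 allows up to 3 counts or 0.075 to 0.0904 CPM in a library (counting error only). Ifnz had 0 to 6 counts. Ifng, the type II interferon, had 11 counts in Ctrl 1 and 0 in every other library. None of the ligands passed the filter on low values.

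Sensors of nucleic acid and their adaptors did not pass in any comparison (0 of 12 tested, of 17 in the table; lowest adjusted p = 0.893, 0.763 and 0.786 for MPTP against Ctrl, MPTPKD against MPTP and MPTPKD against Ctrl). They were above 0 in 6, 5 and 7 of 12 cases, with median log2 fold changes of 0.022, -0.036 and 0.038. Tlr3, the endosomal receptor of double-stranded RNA, averaged 13.7 ± 0.619 CPM in MPTPKD and 14.97 ± 1.06 CPM in MPTP. In the Ctrl libraries it averaged 12.2 ± 1.07 CPM. Both MPTP-treated groups lay above Ctrl without overlap, as did 6.28% (MPTPKD) and 5.14% (MPTP) of all genes tested. In MPTP against Ctrl its log2 fold change was 0.29 (edgeR unadjusted p = 0.0177, adjusted p = 0.893). The RNA helicase gene Ddx58, which encodes RIG-I, averaged 5.21 ± 0.288 CPM in MPTPKD and 6.41 ± 0.721 CPM in Ctrl (log2 fold change -0.30), and its relative Dhx58 2.10 ± 0.148 and 1.54 ± 0.244 CPM (log2 fold change 0.44). Log2 fold changes in MPTP against Ctrl were 0.28 for the adaptor Ticam1 and -0.27 for the adaptor Myd88. The RNA sensor Tlr7 had a log2 fold change of 0.32 in MPTPKD against MPTP. The most expressed genes of the list per length were the kinase Tbk1 at 14.1 FPKM, its target Irf3 at 9.16 FPKM and the mitochondrial adaptor Mavs at 4.97 FPKM, with log2 fold changes in MPTP against Ctrl of -0.0039, -0.13 and -0.11.

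Receptors and signal transducers did not pass either (0 of 9 tested, of 10 in the table; lowest adjusted p = 0.915, 0.720 and 0.740 in the same order of comparisons). Of the 9, 4, 6 and 6 were above 0, and the medians were -0.0039, 0.016 and 0.00092. The receptor chain Ifnar1 averaged 42.6 ± 1.55 CPM in MPTPKD, 42.3 ± 4.01 CPM in MPTP, and 46.4 ± 2.59 CPM in the Ctrl libraries. The kinase Jak1, the most expressed at 30.0 FPKM, averaged 156 ± 6.72, 153 ± 3.72 and 156 ± 8.86 CPM in MPTPKD, MPTP and Ctrl. Ifngr2, a chain of the receptor for type II interferon, averaged 36.6 ± 1.07 CPM in MPTPKD and 32.5 ± 1.19 CPM in Ctrl. Its MPTPKD libraries lay above Ctrl without overlap, as did 6.28% of all genes tested (log2 fold change 0.17, edgeR unadjusted p = 0.0323, adjusted p = 0.740). The kinases Tyk2 and Jak2 had log2 fold changes of 0.16 and -0.045 in MPTP against Ctrl, and the receptor chain Il10rb had one of -0.29 in MPTPKD against MPTP.

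Of 64 other interferon-induced genes 47 were tested and 0 passed (lowest adjusted p = 0.893, 0.631 and 0.740). They were above 0 in 20, 23 and 27 of 47 cases, with medians of -0.028, -0.014 and 0.038. Of the 47, 2, 1 and 4 had an unadjusted p under 0.05, beside 5.36%, 7.78% and 6.73% of all genes tested. Uba7, the enzyme that activates ISG15 for attachment, was at 2.71, 2.42 and 3.65 CPM in MPTPKD, 3.08, 3.41 and 3.35 CPM in MPTP, and 1.75, 2.29 and 1.78 CPM in Ctrl. Both MPTP-treated groups lay above Ctrl without overlap, with log2 fold changes of 0.59 for MPTPKD (edgeR unadjusted p = 0.0287, adjusted p = 0.740) and 0.76 for MPTP (unadjusted p = 0.00769, adjusted p = 0.893). Both comparisons use the same Ctrl libraries. Over all genes tested, 6.28% were higher without overlap in MPTPKD and 5.14% in MPTP than in Ctrl.

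Ifitm2, the neighbour and relative of Ifitm3, was at 2.36, 3.02 and 4.79 CPM in MPTPKD, 3.91, 1.90 and 3.37 CPM in MPTP, and 5.80, 4.89 and 5.28 CPM in Ctrl. Both MPTP-treated groups lay below Ctrl without overlap, with log2 fold changes of -0.65 for MPTPKD (edgeR unadjusted p = 0.0444, adjusted p = 0.740) and -0.80 for MPTP (unadjusted p = 0.0176, adjusted p = 0.893). Of all genes tested, 6.4% were lower without overlap in MPTPKD and 5.41% in MPTP than in Ctrl. No stretch of 100 bases was shared between the Ifitm3 and Ifitm2 transcripts (0 of 579). Ifitm1 averaged 1.53 ± 0.201, 1.39 ± 0.342 and 1.42 ± 0.516 CPM in MPTPKD, MPTP and Ctrl. The peptide transporter Tap1 had a log2 fold change of 0.45 in MPTP against Ctrl. In MPTPKD against MPTP, Pml, Slfn5 and Shisa5 had log2 fold changes of 0.28, 0.28 and -0.15. The class I genes H2-D1 and B2m averaged 52.6 ± 3.95 and 53.6 ± 3.12 CPM in MPTPKD, and 59.1 ± 3.18 and 53.3 ± 4.82 CPM in Ctrl. Ly6e was the most expressed of the list at 81.2 FPKM, with log2 fold changes of 0.050, 0.026 and 0.076 in the 3 comparisons.

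Several textbook response genes lay below the filter and have no test. Chosen after their values were seen, Mx1 had 0 to 14 counts in a library, Cxcl10 0 to 14, Rsad2 47 to 89 and Oas1a 16 to 63, and Ifi44l was at 0 throughout.

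Inhibitors of the pathway did not pass (0 of 14 tested, of 15 in the table; lowest adjusted p = 0.923, 0.588 and 0.753), with 5, 8 and 8 of 14 above 0 and medians of -0.020, 0.017 and 0.013. Adar, whose editing of double-stranded RNA keeps the sensors quiet, had the smallest p of the pathway. It averaged 264 ± 4.94 CPM in MPTPKD, 298 ± 8.75 CPM in MPTP, and 282 ± 14.4 CPM in the Ctrl libraries. All MPTPKD libraries lay below all MPTP libraries, as for 7.1% of all genes tested (log2 fold change -0.18, edgeR unadjusted p = 0.00272, adjusted p = 0.588). The phosphatase Ptpn11 averaged 311 ± 21.02 CPM in MPTPKD and 281 ± 6.42 CPM in MPTP (log2 fold change 0.15, edgeR unadjusted p = 0.0149, adjusted p = 0.625), and Ptpn1 44.9 ± 1.84 and 39.7 ± 3.77 CPM (log2 fold change 0.18). Socs3, a feedback inhibitor of JAK kinases, averaged 2.01 ± 0.391 CPM in MPTP, against 2.72 ± 0.935 CPM in the Ctrl libraries, and Pias1 63.4 ± 3.31 and 66.6 ± 2.90 CPM.

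**Figure D5:**
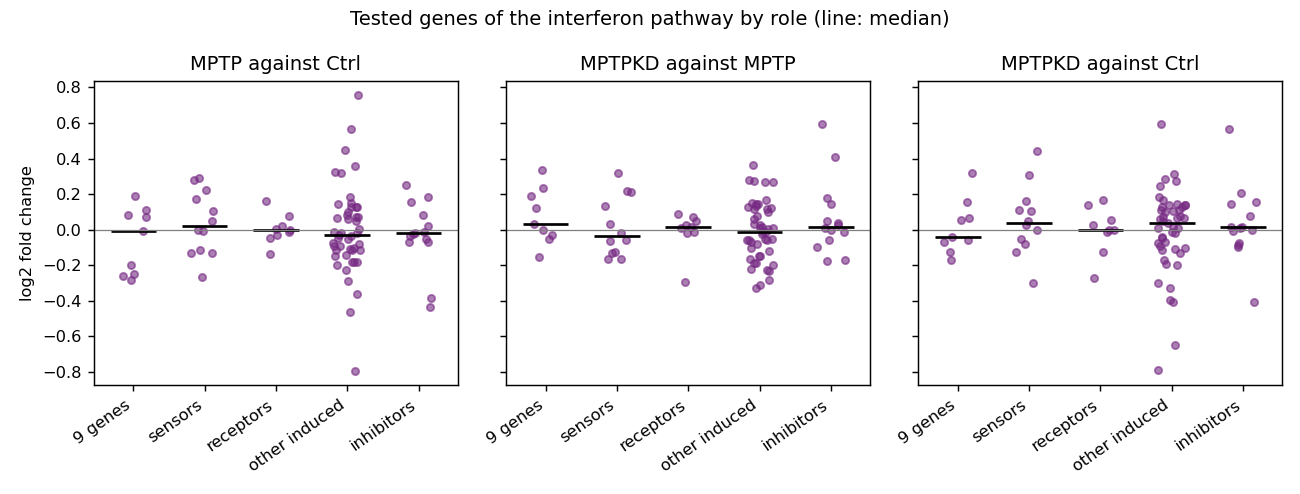
Log2 fold change of each tested gene (points) of the 9 genes and of the sensor, receptor, other induced and inhibitor lists in the 3 comparisons, with the median as a line. The medians lie between -0.043 and 0.038, and no gene shown passed the threshold.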

How the data were processed

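The authors deposited a table with raw read counts and FPKM values per gene in 9 libraries, per the file headers. Per the labels' protocols, RNeasy columns yielded the RNA and an NEBNext Ultra kit the libraries. Per the submitters' processing notes the build was GRCm38. Aligner, counter and strand use are not given in the sources used. Reads of antisense or overlapping genes may therefore be mixed. A further 10 lines naming no gene were not used.

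The main test was the robust quasi-likelihood test of edgeR 4.0.16 (R 4.3.3) on TMM-scaled counts. A single model held all 9 libraries, and p-values were adjusted over 14949 genes whose mean FPKM reached 0.5. The alternatives used limma 3.58.1 on log2 FPKM, with a pseudocount of 0.1 or 1, and DESeq2 1.42.0. Log2 CPM used a prior count of 2. The tests were checked on simulated data. Gene coordinates came from GENCODE M21.

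The members, lists and tests were chosen with earlier results of these data known. The 9 genes are named throughout. From each pathway list the 3 genes of smallest p per comparison and the 3 of highest mean FPKM are named, with the near copies Ifit3b, Ifit1bl1, Ifitm1 and Ifitm2, and the 10 genes of highest r with the mean of the 9. An item that the rule takes is not reported here.

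By a rule, same-numbered libraries would count as paired where the deviations of every pair from its group means correlated at over 0.1. The 3 pairs of MPTPKD and MPTP reached 0.107 to 0.182 and so met it. Those of MPTP and Ctrl (-0.151 to 0.0472) and of MPTPKD and Ctrl (-0.00735 to 0.0783) did not. Between MPTPKD and MPTP, differently numbered libraries gave -0.15 to 0.0413, below every same-numbered pair of these groups. Over all groups, differently numbered libraries reached -0.168 to 0.186, the highest being Ctrl 2 with MPTP 1. No label says that the numbers pair the mice, so a pairing of MPTPKD and MPTP remained possible but not established. The main tests used no pairing in any comparison, and the replicate block was an alternative.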

Additional observations from a re-analysis of the deposited data

How the results depend on the processing

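Over 19 alternatives none of the 432 recomputed values of the 9 genes had an adjusted p under 0.05, the lowest being 0.598 for Ifitm3 in MPTPKD against MPTP without MPTPKD 1. DESeq2 gave no adjusted p for Isg15 in any comparison, nor for Ifit1, Irf7 and Bst2 in MPTPKD against Ctrl. The edgeR unadjusted p was under 0.05 for Ifitm3 in MPTP against Ctrl without MPTP 3 (0.0416) and in MPTPKD against MPTP without MPTP 3 (0.0256) or MPTPKD 1 (0.036), and for Ifit1 in MPTPKD against Ctrl without MPTPKD 3 (0.0489). Signs changed in 39 values of 15 gene comparisons, 28 of them by leaving out 1 library, and the largest log2 fold change that did so was 0.188 in size. Leaving out 1 library at a time gave log2 fold changes, for MPTP against Ctrl, of -0.12 to 0.36 for Isg15, -0.055 to 0.19 for Irf7 and -0.11 to 0.051 for Stat2. For MPTPKD against MPTP they were -0.41 to 0.42 for Ifit1, -0.063 to 0.059 for Ifit2, -0.42 to 0.078 for Isg15, -0.040 to 0.11 for Irf9, -0.11 to 0.055 for Stat2 and -0.24 to 0.16 for Bst2. For MPTPKD against Ctrl they were -0.65 to 0.17 for Ifit1, -0.24 to 0.095 for Ifit3, -0.31 to 0.12 for Isg15, -0.12 to 0.19 for Ifitm3 and -0.026 to 0.33 for Bst2. With Ctrl 3 and MPTP 1 both left out, Isg15, Irf7 and Bst2 were at -0.19, -0.11 and -0.15 in MPTP against Ctrl, Isg15, Irf9 and Bst2 at 0.075, -0.0014 and 0.15 in MPTPKD against MPTP, and Ifit3 and Ifitm3 at 0.0018 and -0.035 in MPTPKD against Ctrl. In limma, in MPTPKD against MPTP, Ifit1 and Irf9 were at -0.016 and -0.026 with a pseudocount of 0.1, and Irf9 at -0.022 with 1. The cause was not tested.

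The number of genes called among all tested moved more. For MPTP against Ctrl (2 called) it was 0 without robust moderation, 0 by limma with either pseudocount, 14 by DESeq2, 1 with Ctrl 3 and MPTP 1 both left out, and 0 to 2 with 1 library left out (0 without Ctrl 2, Ctrl 3 or MPTP 3, and 1 without Ctrl 1 or MPTP 2). For MPTPKD against MPTP (0 called) it was 19 by DESeq2, 1 with both left out and 0 to 1 with 1 left out (1 without MPTP 1 or MPTP 2). For MPTPKD against Ctrl (0 called) it was 1 with no filter on low values, 4 with the 2 groups alone, 14 by DESeq2 and 0 to 1 with 1 left out (1 without MPTPKD 1). With a replicate block the counts were 3, 0 and 5 in the 3 comparisons, and with the replicate block in a model of the 2 groups alone, a combination chosen after seeing the data, 6, 11 and 36. The block gave none of the 9 genes a call. Raw counts in a library were lowest for Isg15, at 28 to 62, with a counting error of 0.22 on the log2 scale beside a within-group SD of 0.39; for Ifit1, at 61 to 186 counts, these were 0.14 and 0.50.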
